A study of Mus musculus with 9 samples.

Results

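The kidneys of mice that lack Pfkfb3 conditionally in proximal tubular cells were compared with the kidneys of wild-type littermates, both at day 14 after the same ischemic injury. The libraries were taken by their labels, PFKFB3 CKO and PFKFB3 WT with IRI day14, and they are 6 of the 9 in the series, 3 in each injured group. The other 3 are wild-type kidneys after a sham operation (Sham). Ischemia-reperfusion injury (IRI) was made under anesthesia, with the artery of each kidney clamped for 30 min. All 9 libraries were made from total RNA of kidney tissue and not of sorted cells. Pfkfb3 transcripts of cells other than the proximal tubule are therefore counted in the knockout too. Which Cre line and exons were used, and how old and of which sex the mice were, no label states. None of the 9 libraries is from a sham-operated knockout kidney. A genotype difference present without injury therefore cannot be told apart from a difference in the response to injury. The study asks what PFKFB3 does in renal fibrosis, and its title also names NF-kB and histone lactylation. Whether each library is a mouse of its own is not stated, so a p-value here reflects only the scatter among these libraries, which may be technical.

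PFKFB3 is an enzyme that makes fructose 2,6-bisphosphate, a strong activator of phosphofructokinase and so of glycolysis. Healthy proximal tubules burn little glucose. They live mainly on fatty acids and other fuels oxidised in mitochondria, and they make glucose and take back most of the filtered salt, sugar, amino acids and protein. After ischemia, surviving tubular cells lose many of these functions for a time, make injury proteins such as KIM-1 (Havcr1) and, where repair fails, signal to immune cells and fibroblasts. Lactate, the end product of glycolysis in injured cells, can also be attached to histones as lactylation, which these RNA data do not measure.

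Each library held counts for 56305 gene identifiers. Totals were 15626792 to 16426817 counts in injured knockout, 16946876 to 17873558 in injured wild-type and 18707315 to 19987842 in sham libraries. In log2 CPM (counts scaled to the depth of each library), the first principal component of the 6 injured libraries took 78.8% of the variance and separated the genotypes. The second held 9.32% and set knockout replicate 1 (51.4) apart from knockout replicates 2 and 3 (-33.3 and -21.9). Libraries of the injured knockout correlated across genes with injured wild-type libraries at r = 0.877 to 0.895 and with sham libraries at r = 0.964 to 0.976. These correlations are across genes, which are no replicates, and serve only to describe the libraries. Transcripts of the mitochondrial genome took 13.2% ± 0.612 of counts in injured knockout, 6.45% ± 0.645 in injured wild-type and 9.40% ± 1.61 in sham libraries (SD, n = 3 each). The difference between the injured groups was 6.74 percentage points and the groups did not overlap (exact permutation test, two-sided p = 0.1, the smallest that 3 against 3 can give). The number of genes with a count was 20036 to 20573 in injured knockout, 22739 to 22790 in injured wild-type and 20900 to 21055 in sham libraries.

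Knockout replicate 1 stood apart in a patterned way, and most results that rest on it are given with and without it. All 18 tested endothelial markers and 13 of 14 podocyte markers were lowest in replicate 1 among the 3 knockout libraries, against 34.9% of all tested genes. Its summed level of the podocyte list was 341 CPM, against 697 and 739 CPM in the other 2 knockout libraries, and of the endothelial list 388 CPM against 932 and 992 CPM. It was highest for 11 of 12 principal cell markers of the collecting duct, for 14 of 16 intercalated cell markers and for 23 of 32 markers of tubular injury, against 38.0% of all tested genes. Whether more medulla, or a more injured kidney, went into that library was not tested. In whole tissue, fewer cells of a type and less RNA per cell cannot be told apart, here and for every cell type marker given after this.

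**Figure D1:**
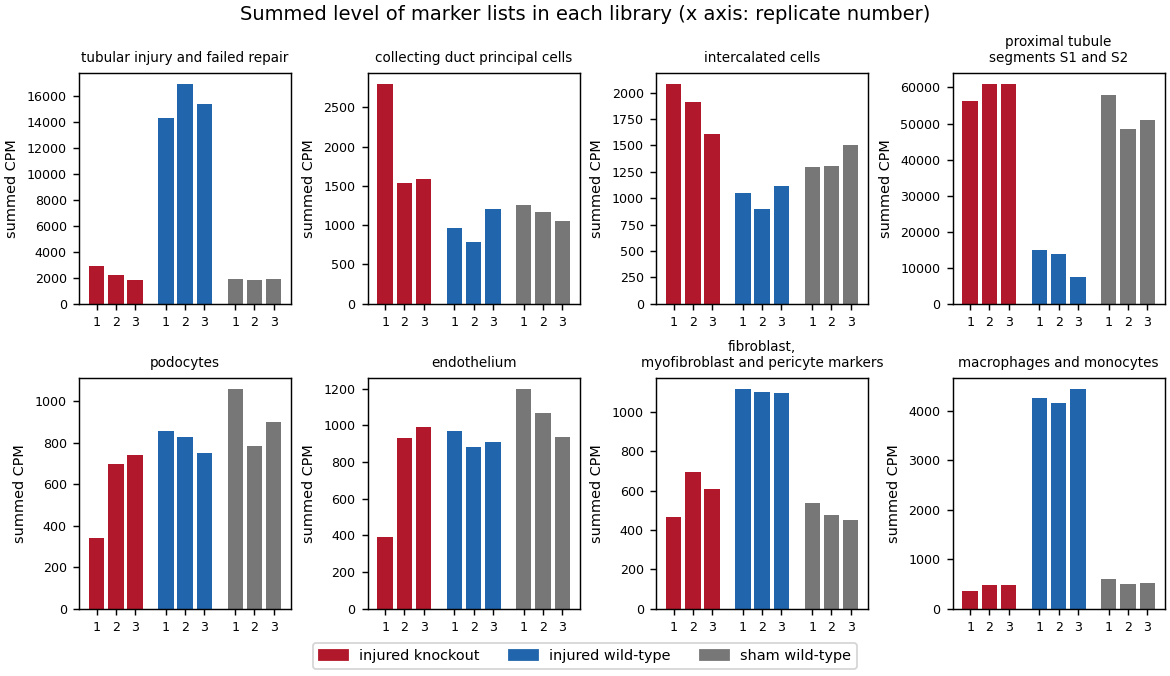
Summed CPM of 8 marker lists in each library: bars are single libraries, numbered by replicate, with injured knockout in red, injured wild-type in blue and sham wild-type in grey. Podocyte and endothelial sums are lowest in knockout replicate 1 of all 9 libraries, where the sum of collecting duct principal cells is highest, and the injury and macrophage sums are high in all 3 injured wild-type libraries.

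Pfkfb3 itself was lower in the injured knockout kidneys, at about the level of the sham kidneys. Pfkfb3 (ENSMUSG00000026773, protein-coding, chromosome 2, 11471433 to 11554077, minus strand, mm10) had 25.2, 19.7 and 17.3 CPM in injured knockout, against 36.2, 34.4 and 25.3 CPM in injured wild-type and 19.99, 20.2 and 21.9 CPM in sham libraries. The highest knockout library and the lowest injured wild-type library nearly met, without overlap. The log2 fold change of injured knockout over injured wild-type was -0.62 (SE 0.167, adjusted p = 0.00773, by the quasi-likelihood test of edgeR, adjusted after Benjamini and Hochberg over all 15974 tested genes, as is every adjusted p given here). The call held without each library in turn, with the log2 fold change between -0.50 without knockout replicate 3 and -0.78 without knockout replicate 1. Counts cover the whole gene, so transcripts that keep other exons after the deletion are included. A value in brackets after a gene symbol is, here and from now on, this log2 fold change.

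No relative of Pfkfb3 was called higher. Pfkfb4, which has the same 2 enzyme activities, had 16.005, 9.05 and 10.2 CPM in injured knockout and 18.2, 17.9 and 19.5 CPM in injured wild-type libraries (log2 fold change -0.66, adjusted p = 0.0192). That call ended without knockout replicate 2 (-0.49), without knockout replicate 3 (-0.55) or without wild-type replicate 3 (-0.62). Pfkfb1, Pfkfb2 and Tigar, whose product removes fructose 2,6-bisphosphate, were not called, at log2 fold changes of -0.71, 0.09 and -0.11. Among genes within 10 Mb of Pfkfb3 on chromosome 2, 22 of 81 were higher and 18 lower in the knockout, that is 49.4% called, against 52.0% of the other genes of chromosome 2 and 56.3% of genes on other chromosomes. Within 1 Mb, 4 neighbours were called: Mindy3 higher (0.64), Il15ra higher (0.37), Rbm17 lower (-0.31) and the interleukin 2 receptor chain Il2ra lower (-2.64, and -3.39 without knockout replicate 3). The other tested genes there, Prkcq, Fbh1, Ankrd16 and Itga8, were not called, and 55.9% of all tested genes were called. All of these neighbours were named after their values were seen. The calls of Il15ra and Rbm17 each ended without knockout replicate 3 (0.25 and -0.18), wild-type replicate 1 (0.32 and -0.27), wild-type replicate 2 (0.34 and -0.26) or sham replicates 2 and 3 in turn, and that of Rbm17 also without sham replicate 1.

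The injured genotypes differed across most of the measured transcriptome. Of 15974 tested genes 8933 were called at a false discovery rate of 0.05, which is 55.9%. In the injured knockout 4444 genes were higher (27.8% of those tested) and 4489 lower (28.1%). These 2 shares are the background for every list count given below. The 2 sides had unlike sizes: the median log2 fold change was 0.88 among genes called higher and -1.33 among genes called lower. At least 2-fold changes numbered 1869 higher and 2783 lower, at least 4-fold changes 368 higher and 1454 lower, and at least 16-fold changes 19 higher and 257 lower. In 4960 genes (31.1%) all 3 knockout libraries lay above all 3 injured wild-type libraries, and in 5130 genes (32.1%) all lay below.

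The direction of small changes depends on how the libraries are scaled. Scaling by TMM, which assumes that most genes did not change, put 49.7% of calls higher, and scaling by library size alone put 16.9% of 10971 calls higher (1852 higher, 9119 lower). The median log2 fold change of all genes was -0.01 with TMM and -0.59 with library size alone. Leaving the mitochondrial transcripts out of the library sizes gave 2225 higher and 8166 lower, 21.4% of calls higher, with a median of -0.49. Every direction below is relative to the bulk of genes, and a list whose direction turns under library size alone is named where it is described. Genes of higher level leaned to the higher side. Of 4 equal groups of genes by mean CPM, the highest had 51.2% higher and 18.2% lower in the knockout, and in the lowest 12.6% were higher and 29.5% lower.

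**Figure D2:**
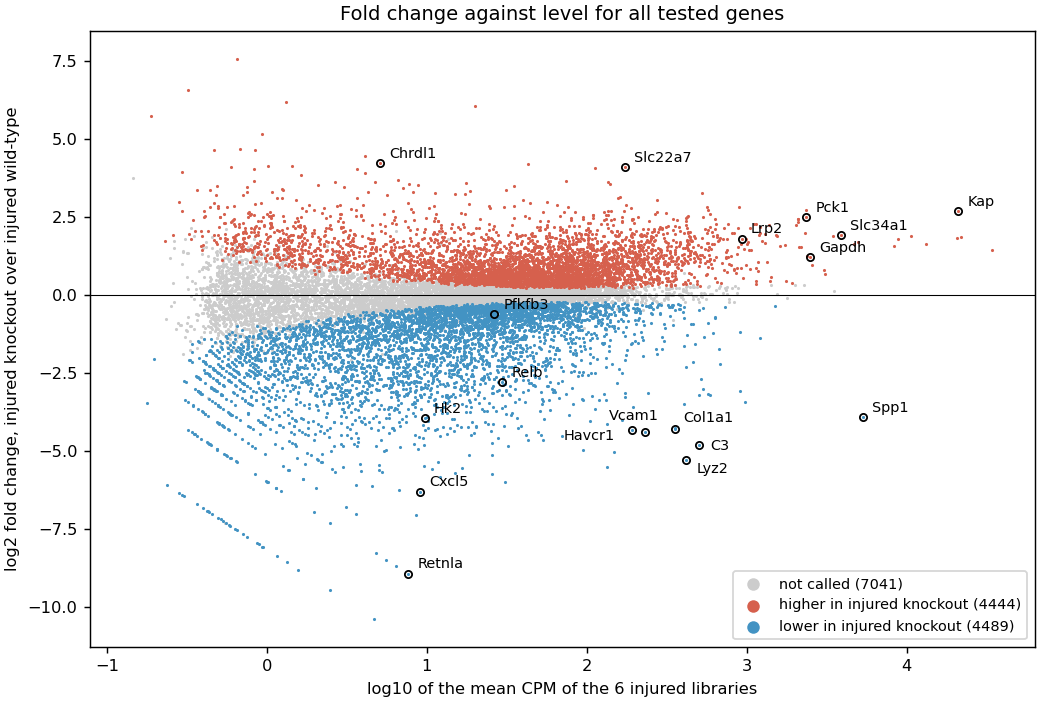
Each point is a tested gene, with the log10 of its mean CPM over the 6 injured libraries on the x axis and the log2 fold change of injured knockout over injured wild-type on the y axis; red genes were called higher, blue genes lower and grey genes were not called. The 4489 lower genes reach further from 0 than the 4444 higher genes, and the proximal tubule genes Kap and Slc34a1 sit at the right among the higher ones.

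The largest falls included genes of macrophages, chemokines and matrix, and the largest rises included transporters, cytochromes and secreted proteins. Retnla, made by macrophages in their alternative state, had 1 count over the 3 injured knockout libraries and 1027 over the 3 injured wild-type libraries, a ratio of 0.00158 (95% exact binomial interval 4.01e-05 to 0.00884, counting error only). Lyz1, a lysozyme, had 1 count against 874, and Arhgap36 had 1 against 759. Ear2, a ribonuclease of eosinophils and macrophages, had 0.365, 0 and 0 CPM in injured knockout and 26.6, 10.98 and 13.8 CPM in injured wild-type libraries. The neutrophil attractant Cxcl5 (-6.32), the monocyte attractant Ccl7 (-6.24), Ltbp2, a binding protein of the matrix (-5.99), and Fcrls, a receptor of resident macrophages (-5.84), complete the 8 largest falls on the log2 scale. All of them were also near 0 in sham libraries, where none of these 8 genes exceeded 1.88 CPM. Without knockout replicate 1 the falls grew to -11.29 for Ear2, -11.36 for Cxcl5, -8.28 for Ccl7, -6.60 for Ltbp2 and -10.68 for Arhgap36, and without knockout replicate 2 to -11.14 for Retnla and -10.89 for Lyz1, where no knockout count is left for Ear2, Cxcl5, Arhgap36, Retnla and Lyz1, so that these 5 values are no measured folds. Without knockout replicate 3 it was -6.47 for Ear2 and -5.71 for Cxcl5.

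Chrdl1, an antagonist of bone morphogenetic proteins, had 9.14, 10.48 and 9.63 CPM in injured knockout, against 0.414, 0.133 and 0.990 CPM in injured wild-type and 10.7, 14.1 and 6.79 CPM in sham libraries (log2 fold change 4.22, adjusted p = 1.34e-05). Slc22a7, an organic anion transporter of the last proximal segment, had 368, 285 and 328 CPM in injured knockout, against 21.9, 24.4 and 11.8 CPM in injured wild-type and 229, 272 and 173 CPM in sham libraries. The cytochromes Cyp2d12 (4.198) and Cyp4a12a (4.07), the lipid-binding Sec14l3 (3.67), the zinc-binding glycoprotein Azgp1 (3.63), the protease inhibitor Serpina1d (3.61) and the complement component C8a (3.57) make up the rest of the 8 largest rises. In each of the 8 the mean of the sham libraries lay nearer to the knockout than to the injured wild-type libraries. The log2 fold change of Chrdl1 was 5.13 without wild-type replicate 3, and that of Cyp2d12 was 3.51 without knockout replicate 2 and 5.57 without wild-type replicate 1. Lyz1, Ear2, Cyp2d12, Cyp4a12a and Serpina1d belong to families of near-identical genes, and their values are uncertain if reads were split among copies.

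Scar genes were low in the injured knockout kidneys. Of 34 tested genes of fibrillar collagens and matrix proteins 32 were lower and 0 higher, with a median log2 fold change of -2.44 against -0.01 over all tested genes. Col1a1, a chain of type I collagen, the main fibre of scars, had 25.5, 48.7 and 28.7 CPM in injured knockout, against 788, 579 and 656 CPM in injured wild-type and 15.8, 18.4 and 11.5 CPM in sham libraries (log2 fold change -4.30, SE 0.262, adjusted p = 3.85e-07). Col3a1, a chain of type III collagen, had 26.5, 45.6 and 31.9 CPM in injured knockout, against 760.05, 578 and 686 CPM in injured wild-type and 17.6, 25.03 and 13.8 CPM in sham libraries. For both collagens the groups were far apart, and the knockout libraries still lay above the sham libraries. Fibronectin Fn1 was 41.2, 42.1 and 30.9 CPM in injured knockout and 296, 255 and 269.8 CPM in injured wild-type libraries (-2.85), the collagen-binding Sparc was lower by a log2 fold change of -2.70, and osteopontin Spp1, also a product of injured tubules, by -3.94. The collagen Col14a1 (-0.22) and fibromodulin Fmod (0.22) were not called.

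Enzymes that build and remodel matrix were mostly lower too. Among 29 cross-linkers, proteases and inhibitors 26 were lower and 1 was higher, Timp3, an inhibitor of metalloproteases that is bound to the matrix (1.19). The protease Plau, also called urokinase, which healthy tubules secrete, had 201, 314 and 434 CPM in injured knockout, 612, 720.3 and 486 CPM in injured wild-type and 761, 989.8 and 631 CPM in sham libraries, so the knockout was lowest of the 3 groups. The protease inhibitor Timp1 (-5.73) and the tubular metalloprotease Mmp7 (-6.14) were lower, both named after their values were seen. Timp1 was -6.72 without knockout replicate 1, and Mmp7, on 5 knockout counts, was -6.79 without knockout replicate 3 and -5.50 without wild-type replicate 2. The hydroxylase P4ha1 (0.21, but called higher at 0.30 without knockout replicate 2 and lower at -0.37 with library size alone) and the plasminogen activator Plat (-0.56) were not called. In the basement membrane list 12 of 18 were lower and 3 higher, against 28.1% and 27.8% of all tested genes. Chains of collagen IV were on both sides. Col4a1 and Col4a2, the chains found in all basement membranes, were lower (-1.58 and -1.49). Col4a3 and Col4a4, chains of the mature glomerular and tubular membranes, were higher (1.18 and 0.92), and the third higher gene, the laminin Lama3 (0.81), lost its call without knockout replicate 2 (0.61). Col4a5 (0.01), Lama1 (-0.02) and Lamb2 (-0.23) were not called.

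The growth factor axis of fibrosis was lower as well, and most smooth muscle genes were not. Among genes of signalling by TGF-beta, a growth factor that drives scarring, 16 of 23 were lower and 1 higher. Over all tested genes 28.1% were lower and 27.8% higher. Tgfb1, the ligand, had 17.98, 24.6 and 22.7 CPM in injured knockout, against 93.2, 104 and 91.1 CPM in injured wild-type and 33.7, 27.3 and 21.6 CPM in sham libraries (log2 fold change -2.14). The receptor Tgfbr2 (-1.56) and the target Ccn2 (-1.07) were lower, and the 1 higher gene was Bmp7 (1.26), a ligand that opposes TGF-beta in the kidney. Of 19 fibroblast, myofibroblast and pericyte markers 12 were lower, Vim (-1.76) and the ligand Pdgfb (-2.48) among them, and 2 were higher, the smooth muscle genes Myh11 (1.71) and Cnn1 (0.75). The call of Cnn1 ended without knockout replicate 2 (0.46), wild-type replicate 1 (0.68) or wild-type replicate 2 (0.69). Acta2, the smooth muscle actin used as a myofibroblast marker, had 81.2, 127 and 97.5 CPM in injured knockout, against 109, 85.96 and 95.99 CPM in injured wild-type and 72.2, 54.8 and 49.7 CPM in sham libraries. Its injured groups overlapped (0.07, adjusted p = 0.749), and with library size alone it was called lower at -0.51. Rgs5 (0.33, called at 0.51 without knockout replicate 1), Notch3 (-0.24, called at -0.34 without wild-type replicate 2), Tagln (-0.70) and Meg3 (0.41) were not called either, and Tagln and Meg3 stayed at or below 1.12 CPM in every library. The summed level of this list was 467 to 697 CPM in injured knockout, 1097 to 1116 in injured wild-type and 452 to 539 in sham libraries, and its part in the lower collagen values was not tested.

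Genes that mark injured and unrepaired tubules were low in the knockout. Of 32 tested members of this list 29 were lower and 0 higher, with a median log2 fold change of -2.78. Havcr1, or KIM-1, a receptor that injured proximal tubules put on their surface, had 51.1, 3.17 and 0.963 CPM in injured knockout, against 415, 423 and 267 CPM in injured wild-type and 2.46, 3.93 and 2.32 CPM in sham libraries. The groups did not overlap, but knockout replicate 1 stood well above the other 2 knockout libraries. The log2 fold change was -4.32 (SE 0.938, adjusted p = 0.00213) and -7.49 without that library. The lipocalin Lcn2, a urinary injury marker, had 14.1, 2.34 and 1.38 CPM in injured knockout and 109, 279 and 166 CPM in injured wild-type libraries (-4.96, and -6.64 without knockout replicate 1). The same library was highest for the keratin Krt20 (11.6, 0.0754 and 1.93 CPM in the 3 knockout libraries, log2 fold change -3.80, and -5.92 without it) and for the regeneration factor Sox9 (6.21, 0.829 and 0.756 CPM, -4.15, and -5.84 without it). Vcam1, an adhesion molecule of tubules that fail to repair, had 33.7, 14.02 and 14.3 CPM in injured knockout, against 433, 510.05 and 378 CPM in injured wild-type and 22.05, 23.4 and 14.05 CPM in sham libraries. Clusterin Clu (-1.19) and the hyaluronan receptor Cd44 (-4.54, and -5.66 without knockout replicate 1, named after its value was seen) were lower too. The keratin Krt7 (-0.16), the integrin Itgb8 (0.12) and the stress hormone Gdf15 (-0.27) were not called.

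**Figure D3:**
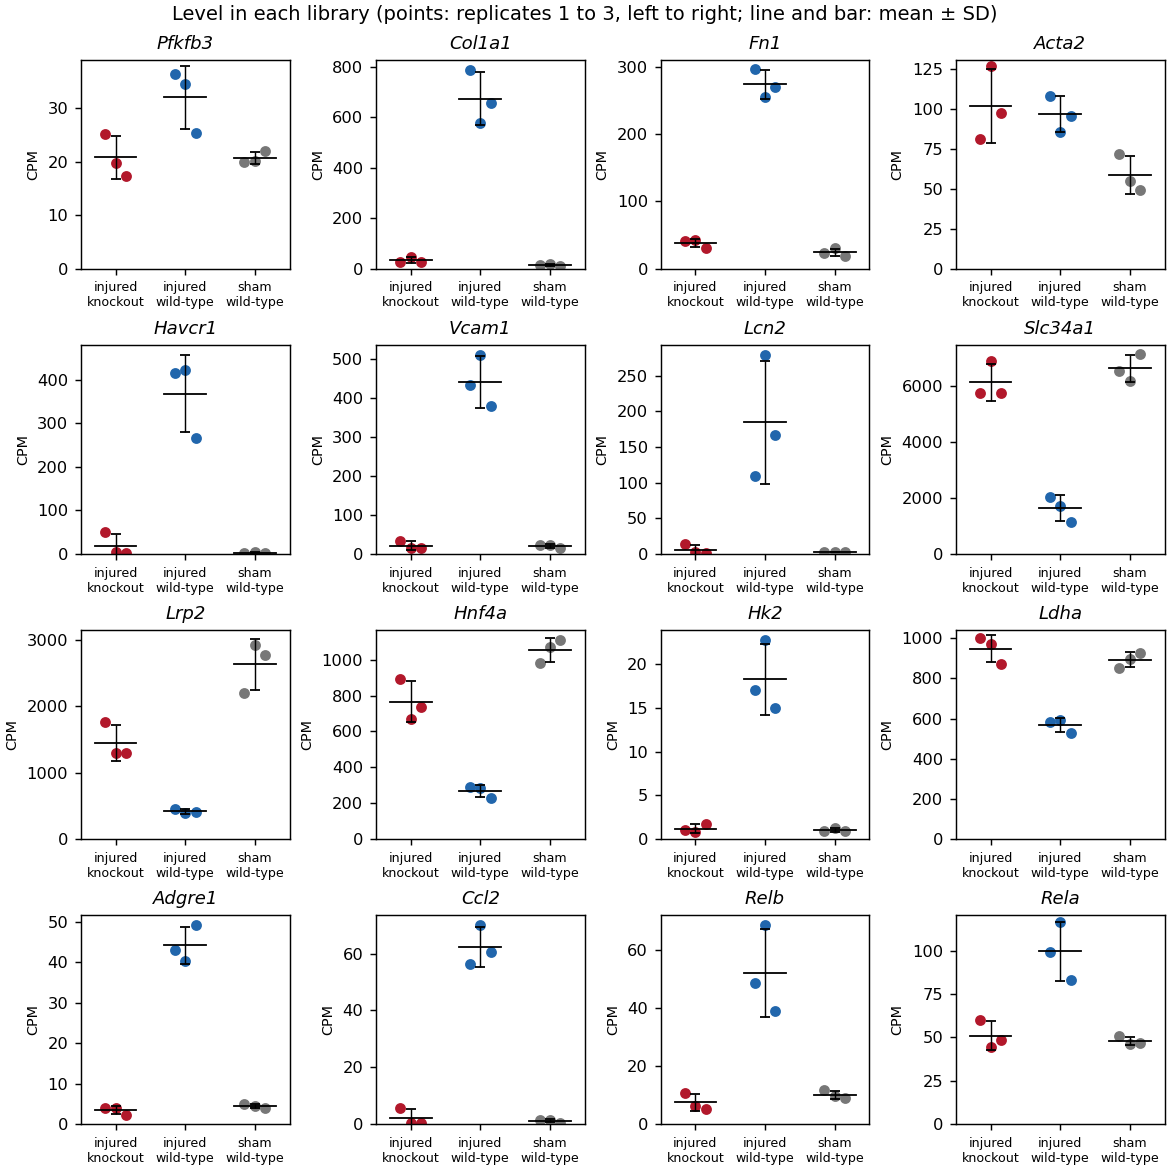
CPM of 16 genes in each library, with injured knockout left, injured wild-type in the middle and sham wild-type right; points are replicates 1 to 3 from left to right, and the line and bar are the mean ± SD of 3 libraries. Injured wild-type libraries stand apart in every panel except those of Acta2 and Pfkfb3, where the injured groups overlap or nearly meet, and knockout replicate 1 is the highest knockout library for Havcr1, Lcn2 and Ccl2.

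Transport genes of the proximal tubule were higher in the injured knockout. Of 26 markers of the first and middle segments (S1 and S2) 24 were higher and 0 lower, with a median log2 fold change of 1.59, and of 15 markers of the last segment (S3) 14 were higher and 1 lower, with a median of 2.20. With library size alone 17 of 26 and 11 of 15 were higher, with 0 and 1 lower. Slc34a1 (ENSMUSG00000021490, chromosome 13, 55398187 to 55415592, plus strand), which takes phosphate back from the urine, had 5765, 6892 and 5762 CPM in injured knockout, against 2047, 1714 and 1126 CPM in injured wild-type and 6557, 6183 and 7170 CPM in sham libraries (log2 fold change 1.91, adjusted p = 1.21e-05). The androgen-regulated Kap had 34897, 35416 and 38656 CPM in injured knockout and 7486, 7256 and 2410 CPM in injured wild-type libraries. The protein uptake receptors Lrp2 (1.80) and Cubn (1.63) were higher than in injured wild-type but did not reach the sham range, with 1758, 1292 and 1297 CPM of Lrp2 in injured knockout and 2196, 2925 and 2782 CPM in sham libraries. Among S3 markers the fatty acid transporter Slc27a2 (1.88) and the cytochrome Cyp4b1 (2.72) were higher. The 1 lower marker of the S3 list was the glucose transporter Slc2a1 (-0.52), and the amino acid transporter Slc7a8 (0.27) and the sulphate transporter Slc13a1 (0.31) were not called, although Slc13a1 passed without wild-type replicate 2 (0.40) or sham replicate 3 (0.32). Wild-type replicate 3 had the lowest summed level of the S1 and S2 list, 7307 CPM, against 14866 and 13680 CPM in wild-type replicates 1 and 2, and without it 20 of 26 were called higher.

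Among transcription regulators of the proximal tubule some were higher. Of 17 regulators 10 were higher and 0 lower. That is 58.8% called, near the 55.9% of all tested genes, of which 27.8% were called higher. Their median of 0.54 became -0.04 with library size alone (5 higher, 7 lower). Hnf4a, a master regulator of proximal tubule genes, had 891, 668 and 734 CPM in injured knockout, against 291, 284 and 229 CPM in injured wild-type and 983, 1070 and 1112 CPM in sham libraries (1.51). The metabolic regulator Esrra (0.91) and the mitochondrial coactivator Ppargc1a (0.47, but -0.11 with library size alone) were higher. HNF1 factors are a second group of regulators of this cell type, and promoters were searched for the half-site letters GTTAAT on both strands, from 250 bases before to 50 after the RefSeq start. The letters were found in 8.93% of 1322 promoters of genes at least 2-fold higher in the knockout, in 4.69% of 1981 at least 2-fold lower, in 4.74% of 4982 not called, in 4.86% of the 11691 promoters of tested genes and in 7.20% of all 27025 promoters. The promoter of Slc34a1 holds 2 matches, written in capitals, and is shown as that of the phosphate transporter described above (RefSeq, GRCm38.p6, chr13:55399398-55399697, plus strand).
Slc34a1 promoter: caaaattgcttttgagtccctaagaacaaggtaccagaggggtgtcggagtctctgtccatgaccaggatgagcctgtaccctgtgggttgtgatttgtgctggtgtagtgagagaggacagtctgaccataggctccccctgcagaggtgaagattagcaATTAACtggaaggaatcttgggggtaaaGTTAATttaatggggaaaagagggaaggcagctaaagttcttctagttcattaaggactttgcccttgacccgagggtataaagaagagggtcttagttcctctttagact
A match is a description of these letters and not a bound site, and among the panel of 33 genes the promoter of Umod also holds a match although Umod was not called.

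The listed genes of oxidative metabolism and most of those of glucose synthesis were higher in the injured knockout kidneys. All 33 genes of fatty acid oxidation and the peroxisome, all 23 of the tricarboxylic acid cycle, all 36 tested nuclear-encoded respiratory chain genes and all 12 tested transcripts of the mitochondrial genome were called higher. Their median log2 fold changes were 1.63, 1.17, 1.20 and 1.74. Library size alone left 31 of 33, 21 of 23, 35 of 36 and 11 of 12 called higher and 0 lower. Cat, the catalase that breaks down hydrogen peroxide in peroxisomes, had 1255, 1357 and 1556 CPM in injured knockout, against 463, 467 and 413 CPM in injured wild-type and 1600, 1485 and 1508 CPM in sham libraries (1.63). The cycle enzymes Mdh1 (1.42) and Sdha (1.22), the ATP synthase subunit Atp5b (1.54) and the oxidase subunit Cox6a1 (1.32) were higher with no overlap between the injured groups. The mitochondrial transcripts mt-Co1 (1.42) and mt-Cytb (1.84) rose with the mitochondrial share of counts given above. In the list of gluconeogenesis and fructose metabolism 11 of 13 were higher and 0 lower. Pck1, the enzyme that commits carbon to new glucose, had 3142, 4659 and 4207 CPM in injured knockout, against 955, 886 and 312 CPM in injured wild-type and 5062, 4390 and 5834 CPM in sham libraries (2.48). The mitochondrial Pck2 (-0.17) and the muscle-type Fbp2 (0.09) were not called.

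Glycolysis split between its enzymes. Of 29 genes of glycolysis and lactate 16 were higher and 9 lower in the injured knockout, with a median log2 fold change of 0.61, and with library size alone 9 were higher and 14 lower (median 0.02). The lower members included entry and exit steps. Hexokinase Hk2, which traps glucose in the cell, had 1.02, 0.754 and 1.72 CPM in injured knockout, against 17.01, 22.8 and 14.98 CPM in injured wild-type and 0.879, 1.27 and 0.893 CPM in sham libraries (log2 fold change -3.95, adjusted p = 1.11e-06). Knockout and sham libraries shared a low range, and all injured wild-type libraries lay far above it. The lactate exporter Slc16a3 had 1.02, 1.88 and 0.963 CPM in injured knockout and 5.15, 6.22 and 7.92 CPM in injured wild-type libraries (-2.32), and the glucose transporter Slc2a1 was lower too, as given above. Slc16a7, a transporter of the same family as Slc16a3, was higher (0.83). Of the middle steps that also serve gluconeogenesis, Gapdh (1.201), Aldoa (0.74) and Pgk1 (1.05) were higher. The enolase Eno2 (-1.78) was lower, while the enolases Eno1 (0.80) and Eno3 (0.62) were higher. The phosphofructokinase Pfkp (-0.71) was lower, while Pfkm (0.95) and Pfkl (0.29), of the same step, were higher. The pyruvate kinase Pklr (-1.34), an enzyme of the last step before lactate, was lower too. The genes of the enolase and phosphofructokinase steps and Pklr were named after their values were seen. Leaving out single libraries gave 13 to 16 members of the list called higher. Lactate dehydrogenase Ldha had 1000, 974 and 873 CPM in injured knockout, against 584, 594 and 527 CPM in injured wild-type and 854, 895 and 929 CPM in sham libraries (0.74). Pdk4, a kinase that keeps pyruvate out of the mitochondrial cycle, was higher (2.56), as were Pdk1 (0.61), Pdk2 (1.27) and Pdk3 (1.10). These kinases and Slc16a7 are among the 16 higher members but are not enzymes of glycolysis. They were also named after their values were seen. Hk1 (-0.01), Aldoc (-0.02), the pyruvate kinase Pkm (-0.04) and Ldhb (0.03) were not called.

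**Figure D4:**
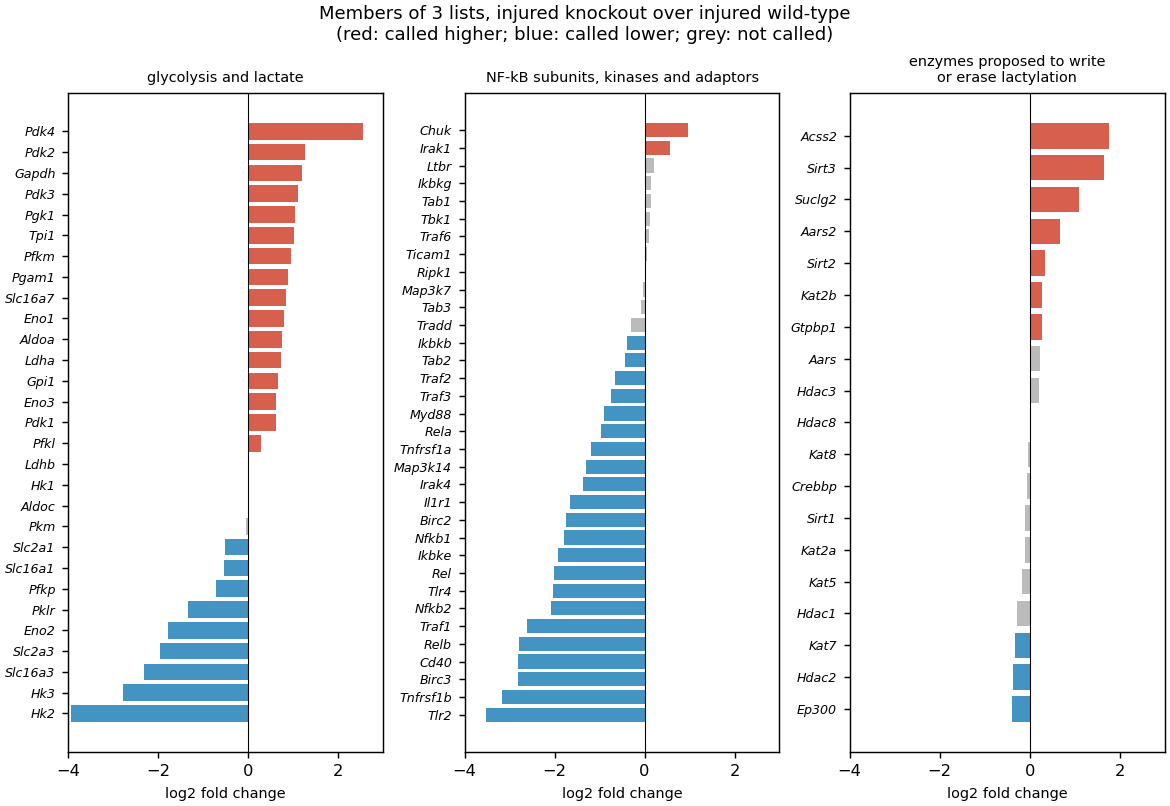
Log2 fold change of injured knockout over injured wild-type for each tested member of 3 lists; red bars were called higher, blue bars lower and grey bars were not called. In glycolysis 16 members are higher and 9 lower, among NF-kB subunits, kinases and adaptors 2 are higher and 22 lower, and among enzymes proposed to write or erase lactylation 7 are higher and 3 lower.

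Enzymes proposed to write or erase lactylation changed in both directions. Of 19 members 7 were higher and 3 lower, a share called of 52.6% against 55.9% of all tested genes, with a median of 0.02. The higher ones were led by enzymes that mitochondria or central metabolism use for other tasks, Acss2, which makes acetyl-CoA (1.76), the mitochondrial deacylase Sirt3 (1.66) and the cycle enzyme Suclg2 (1.09). The 3 lower ones were the acyltransferase Ep300 (-0.39), with 54.6, 45.1 and 57.5 CPM in injured knockout and 66.1, 72.8 and 66.8 CPM in injured wild-type libraries, the acyltransferase Kat7 (-0.32) and the deacylase Hdac2 (-0.37). The call of Kat7 ended without knockout replicate 2 (-0.25), wild-type replicate 1 (-0.30) or wild-type replicate 2 (-0.28). With library size alone 3 were higher and 15 lower, and the median turned to -0.56.

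Immune cell markers were low in the injured knockout. Of 27 macrophage and monocyte markers 25 were lower and 1 higher, with a median log2 fold change of -3.49. Adgre1, the F4/80 antigen of macrophages, had 4.02, 3.84 and 2.20 CPM in injured knockout, against 42.95, 40.4 and 49.3 CPM in injured wild-type and 4.93, 4.43 and 4.05 CPM in sham libraries (-3.72). The lysosomal marker Cd68 (2.63, 2.94 and 2.75 CPM in injured knockout, 23.5, 28.98 and 29.4 CPM in injured wild-type libraries) and the lysozyme Lyz2 (18.3, 26.2 and 17.3 CPM in injured knockout, 826, 751 and 865 CPM in injured wild-type libraries) were also far lower. Apoe, also made by other cells, was lower (-3.44). The 1 higher marker was the phagocytic receptor Mertk (0.35, adjusted p = 0.0421, but -0.23 with library size alone), whose groups overlapped and whose call ended without knockout replicate 2 (0.38) or 3 (0.23), wild-type replicate 2 (0.29) or 3 (0.34) or sham replicate 2 (0.34). The scavenger receptor Cd163 was not called (-0.87), except without wild-type replicate 3 (-1.196). The summed macrophage list was 354 to 484 CPM in injured knockout, 4150 to 4432 in injured wild-type and 505 to 602 in sham libraries.

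Lymphoid and antigen-presenting cells showed the same direction. All 17 genes of dendritic cells and class II presentation were lower, among them Cd74 (-3.09) and H2-Eb1 (-3.22). Of 21 markers of T and natural killer cells 19 were lower, among them Cd4 (-3.998) and Ccl5 (-3.17), and Cd8a (-0.45) and Prf1 (-1.54, called at -2.65 without knockout replicate 1) were not called. Of 11 markers of B and plasma cells 10 were lower. The immunoglobulin chain Ighm had 1.68, 7.76 and 7.63 CPM in injured knockout and 501, 215 and 73.1 CPM in injured wild-type libraries, a wide spread within the wild-type group (-5.53, and -4.66 without wild-type replicate 1), Igkc was lower too (-4.03), and Xbp1, which tubules also express, was not called (0.24). Neutrophil markers were low in counts, and 7 of 8 were lower, with -3.27 for Csf3r, -3.61 for Mmp9 (-4.46 without knockout replicate 3) and -0.67 for Ltf, which was called only without knockout replicate 3 (-3.61).

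Signals that draw and hold immune cells were lower in the knockout. Of 31 cytokines, chemokines and adhesion molecules 28 were lower and 1 higher. Ccl2, the main monocyte attractant, had 5.77, 0.377 and 0.275 CPM in injured knockout, against 56.3, 69.96 and 60.5 CPM in injured wild-type and 1.41, 1.495 and 0.476 CPM in sham libraries (-4.87, and -7.55 without knockout replicate 1). Tnf had 0.146, 0.0754 and 0.0688 CPM in injured knockout and 2.12, 3.69 and 4.65 CPM in injured wild-type libraries, on 4 counts over the knockout group. Il1b was lower with an overlap, 1.68, 1.58 and 4.54 CPM in injured knockout against 4.46, 16.9 and 15.8 CPM in injured wild-type libraries (-2.24, and -2.91 without knockout replicate 3). Il6 was below the low-count filter, with 0 counts in injured knockout and 39 in injured wild-type libraries. The 1 higher gene was the epithelial chemokine Ccl28 (1.59), whose call ended without knockout replicate 1 (1.14) or wild-type replicate 3 (1.40). Il18 (0.11) and the stromal chemokine Cxcl12 (-0.00011) were not called.

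NF-kB is a family of transcription factors that switch on inflammatory genes, and most listed transcripts of its pathway were lower. Activity of the pathway was not measured. Of 34 subunits, kinases and adaptors 22 were lower and 2 higher, with a median log2 fold change of -0.94. The 10 not called, among them the kinases Tbk1 and Map3k7 and the kinase subunit Ikbkg, ranged from -0.30 to 0.21. Relb, a subunit of the alternative branch, had 10.8, 6.26 and 5.29 CPM in injured knockout, against 48.4, 68.6 and 38.7 CPM in injured wild-type and 11.6, 9.58 and 8.81 CPM in sham libraries (-2.80, adjusted p = 6.68e-06). Nfkb1, a subunit of the classical branch, had 32.9, 26.01 and 32.3 CPM in injured knockout and 101, 123 and 89.7 CPM in injured wild-type libraries (-1.78). Rela, its partner, had 60.3, 44.4 and 48.2 CPM in injured knockout against 99.2, 117 and 83.03 CPM in injured wild-type libraries (-0.97). In all 3 the injured groups did not overlap. The receptor Tnfrsf1a was lower (-1.18), and the 2 higher genes were the kinases Chuk (0.96) and Irak1 (0.56), which with library size alone were 0.38 and -0.02. That scaling gave 1 higher and 32 lower. Macrophages and lymphocytes carry many of these genes, their markers were lower in the same libraries, and the part of those cells in the NF-kB values was not tested.

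Among 18 inhibitors and feedback targets of NF-kB 13 were lower and 1 higher, the mitochondrial superoxide dismutase Sod2 (1.44), which is also an abundant enzyme of tubular mitochondria. Nfkbia, the inhibitor that NF-kB itself induces, had 47.5, 41.6 and 56.4 CPM in injured knockout, against 111, 161 and 101 CPM in injured wild-type and 40.3, 47.95 and 41.5 CPM in sham libraries (-1.35). Nfkbib (0.34), Otulin (0.22), N4bp1 (-0.23) and Cflar (0.22) were not called, but without wild-type replicate 2 Nfkbib (0.51) and Cflar (0.32) were. Promoters were searched for GGNNTTNCC, letters that resemble an NF-kB site, on both strands. They were found in 18.7% of promoters of genes at least 2-fold lower in the knockout, in 17.5% of those at least 2-fold higher, in 16.7% of those not called, in 17.0% of the 11691 promoters of tested genes and in 15.8% of all 27025 promoters. Nfkbia holds 2 matches, written in capitals, and is shown as the feedback gene of the pathway (RefSeq, GRCm38.p6, chr12:55492598-55492897, minus strand).
Nfkbia promoter: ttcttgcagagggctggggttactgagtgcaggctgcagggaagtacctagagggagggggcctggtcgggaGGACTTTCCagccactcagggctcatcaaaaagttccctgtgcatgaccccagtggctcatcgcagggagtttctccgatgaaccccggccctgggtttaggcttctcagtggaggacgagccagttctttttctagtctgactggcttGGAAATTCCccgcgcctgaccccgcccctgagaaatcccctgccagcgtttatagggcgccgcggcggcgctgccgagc
In the panel of 33 genes, matches were also found at Krt20 and Cd68, which were lower, and at Aqp2, which was higher.

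Interferon, complement and inflammasome genes were lower too. All 30 interferon-stimulated genes were lower, with a median of -1.79, such as Bst2 (-1.81) and the RNA sensor Ddx58 (-1.40), and 26 to 30 of them were called when single libraries were left out. Of 19 complement genes 15 were lower and 3 higher. C3, the central component, had 69.2, 15.8 and 18.5 CPM in injured knockout, against 916, 1198 and 804 CPM in injured wild-type and 34.8, 20.6 and 16.5 CPM in sham libraries (-4.82, and -5.81 without knockout replicate 1). The 3 higher genes were C4a (2.52), whose near-identical copy C4b may share its reads, Cfb (1.51) and the inhibitor Cd55 (1.25), and C2 was not called (-0.09). The call of Cfb ended without knockout replicate 1 (1.41) or 3 (1.49) or without wild-type replicate 3 (1.05). In the inflammasome and cell death list 11 of 17 were lower, among them Gsdmd (-2.25), which forms the pores of pyroptosis, Bak1 (-1.11) and the sensor Nlrp3 (-4.11, named after its value was seen). The 1 higher gene was the sensor Nlrc4 (0.58), a call that turned to -0.0048 with library size alone and ended without knockout replicate 1 (0.42) or wild-type replicate 1 (0.55), and the 5 not called ranged from -0.15 to 0.29.

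Cell division genes were mostly lower, and senescence and stress genes were mixed but leaned lower. Over all tested genes 28.1% were lower and 27.8% higher. Of 32 cell cycle genes 24 were lower and 0 higher, with a median of -1.12. The lower ones ranged from -2.90 to -0.41, with the kinase Cdk4 (-0.53) and the replication clamp Pcna (-0.41) among the smaller falls. In the senescence and p53 list 11 of 18 were lower and 3 higher, the lysosomal galactosidase Glb1 (1.197), Ccng1 (0.73) and the stress sensor Sesn2 (1.40). Of 18 immediate early and heat shock genes 6 were lower, with the small heat shock protein Hspb1 at -3.14, and 3 higher, Hsph1 (0.84), Dusp1 (1.25) and Dnajb1 (0.83). With 9 of 18 called, this last list was near the 55.9% of all genes.

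Defence against oxidation was mostly higher. Of 21 NRF2 targets and ferroptosis genes 14 were higher and 2 lower, against 27.8% and 28.1% of all tested genes, with a median of 0.91. With library size alone 8 were higher and 4 lower, and the median was 0.31. The secreted peroxidase Gpx3, a product of the proximal tubule, had 26191, 40690 and 30366 CPM in injured knockout, against 10224, 9718 and 7748 CPM in injured wild-type and 30592, 22346 and 30123 CPM in sham libraries (1.81), and ferritin Fth1 was higher (1.69). The 2 lower genes were the NRF2 gene itself, Nfe2l2 (-0.37), and the cystine transporter Slc7a11 (-3.51, on 5 knockout counts, and -4.20 without knockout replicate 1). The call of Nfe2l2 ended without knockout replicate 2 (-0.25) or 3 (-0.34) or wild-type replicate 2 (-0.30). The 5 genes not called, the NRF2 targets Hmox1 and Srxn1 among them, ranged from -0.08 to 0.36. Hypoxia targets were higher in 9 of 20 cases and lower in 1, Slc2a1, so that 50% were called, against 55.9% of all tested genes. Their median, 0.36, turned to -0.22 with library size alone (4 higher, 9 lower).

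Markers of other nephron segments were mostly higher, while 27.8% of all tested genes were called higher and 28.1% lower. Thick ascending limb markers were higher in 8 of 13 cases and lower in 1, Cldn19 (-0.51). Egf, which this segment secretes into urine, had 569, 879 and 652 CPM in injured knockout, against 157, 121 and 135 CPM in injured wild-type and 866, 1220 and 918 CPM in sham libraries (2.35), and the salt transporter Slc12a1 was higher (0.67). Umod, the most used marker of the segment, was not called, with 808, 1197 and 817 CPM in injured knockout, against 849.9, 890.3 and 705 CPM in injured wild-type and 1405, 2400 and 1537 CPM in sham libraries (0.21). Distal convoluted and connecting tubule markers were higher in 8 of 13 cases, among them kallikrein Klk1 (2.25) and calbindin S100g (1.83), whose knockout libraries also lay above all sham libraries, and lower in 1, the calcium pump Atp2b1 (-0.89). Intercalated cell markers were higher in 11 of 16 cases and lower in 0, with Car12 at 1.19 and Rhcg at 1.31. Principal cell markers of the collecting duct were higher in 9 of 12 cases and lower in 1, St6gal1 (-1.36). In 7 of the 12 all knockout libraries lay above all injured wild-type libraries, against 31.1% of all tested genes. Leaving out single libraries gave 7 to 9 principal cell markers and 10 to 13 intercalated cell markers called higher. The water channel Aqp2 had 1434, 477 and 536 CPM in injured knockout, against 333, 267 and 505 CPM in injured wild-type and 568, 442 and 341 CPM in sham libraries, and its groups overlapped. Its call (1.15) ended without knockout replicate 1 (0.47), wild-type replicate 1 (1.08) or wild-type replicate 2 (0.97), while the enzyme Hsd11b2, of the same cells, had no overlap (0.85). With library size alone the thick ascending limb had 5 higher and 3 lower, the distal list 5 and 3, principal cells 3 and 2 and intercalated cells 9 and 2.

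No endothelial marker was called, and podocyte markers lay on both sides. Of 18 endothelial markers 0 were called by edgeR, with log2 fold changes from -0.47 to 0.39, an unadjusted p under 0.05 in 0 of 18 and 0 called by DESeq2. With library size alone 12 were called lower, and with no low-count filter 5. Without knockout replicate 1 the vascular receptor Kdr (0.80) and the glomerular endothelial gene Ehd3 (0.69) were called higher. Of 14 podocyte markers 5 were lower, among them Cd2ap (-0.94), Synpo (-0.85), Plce1 (-0.66) and Tcf21 (-2.82), and 1 was higher, Clic5 (0.49, but -0.09 with library size alone, which gave 0 higher and 9 lower). The call of Plce1 ended without each injured library in turn except knockout replicate 3 (-0.67 to -0.42). The call of Clic5 ended without knockout replicate 2, knockout replicate 3 or wild-type replicate 3 (0.40 each). These 6 calls are 42.9% of the podocyte list, against 55.9% of all tested genes. Leaving out knockout replicate 1 gave 4 podocyte markers higher, among them Nphs1 (0.64), Podxl (0.44) and Clic5 (0.67), with 4 lower.

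Protein stress, sterol and clock genes were called in 6 of 18, 7 of 16 and 9 of 16 cases, against 55.9% of all genes. In the integrated stress and unfolded protein list 2 of 18 were higher, Herpud1 (1.31) and Edem1 (0.43, but -0.15 with library size alone), and 4 lower. The lower ones were the serine and asparagine synthesis genes Phgdh (-2.47) and Asns (-1.77), Atf5 (-1.05) and the chaperone Pdia4 (-0.25), and the call of Pdia4 ended when any of 7 libraries was left out (-0.29 to -0.19). Of 16 cholesterol synthesis genes 5 were higher, Cyp51 (1.88), Idi1 (1.56), Hmgcs1 (1.001), Nsdhl (0.90) and Sc5d (0.67). Another 2 were lower. Of 16 clock genes 7 were higher, such as Tef (1.23) and Per1 (0.71), and 2 lower, Npas2 (-1.65, and -2.25 without knockout replicate 1) and Bhlhe41 (-1.29). The medians of these 3 lists, 0.19, 0.28 and 0.38, turned to -0.39, -0.31 and -0.19 with library size alone. The time of day of collection is not stated by any label.

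Most markers of tissue next to the kidney were too low to be tested. Of 8 markers of the adrenal gland 1 was tested and 0 called, of 7 markers of fat 1 was tested and called higher, Thrsp (1.03), and Adipoq was below the low-count filter. Of 8 markers of skeletal muscle 3 were tested and 2 lower. Acta1 had 2 counts in injured knockout and 75 in injured wild-type libraries, a ratio of 0.0434 (95% exact binomial interval 0.00516 to 0.162), and Tnni2 (-2.91) lost its call without knockout replicate 1 (-2.35), knockout replicate 2 (-3.07) or wild-type replicate 2 (-2.77), and was -3.55 without knockout replicate 3. Red cell genes, a sign of blood left in the tissue, were not called in 5 of 5 cases.

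**Figure D5:**
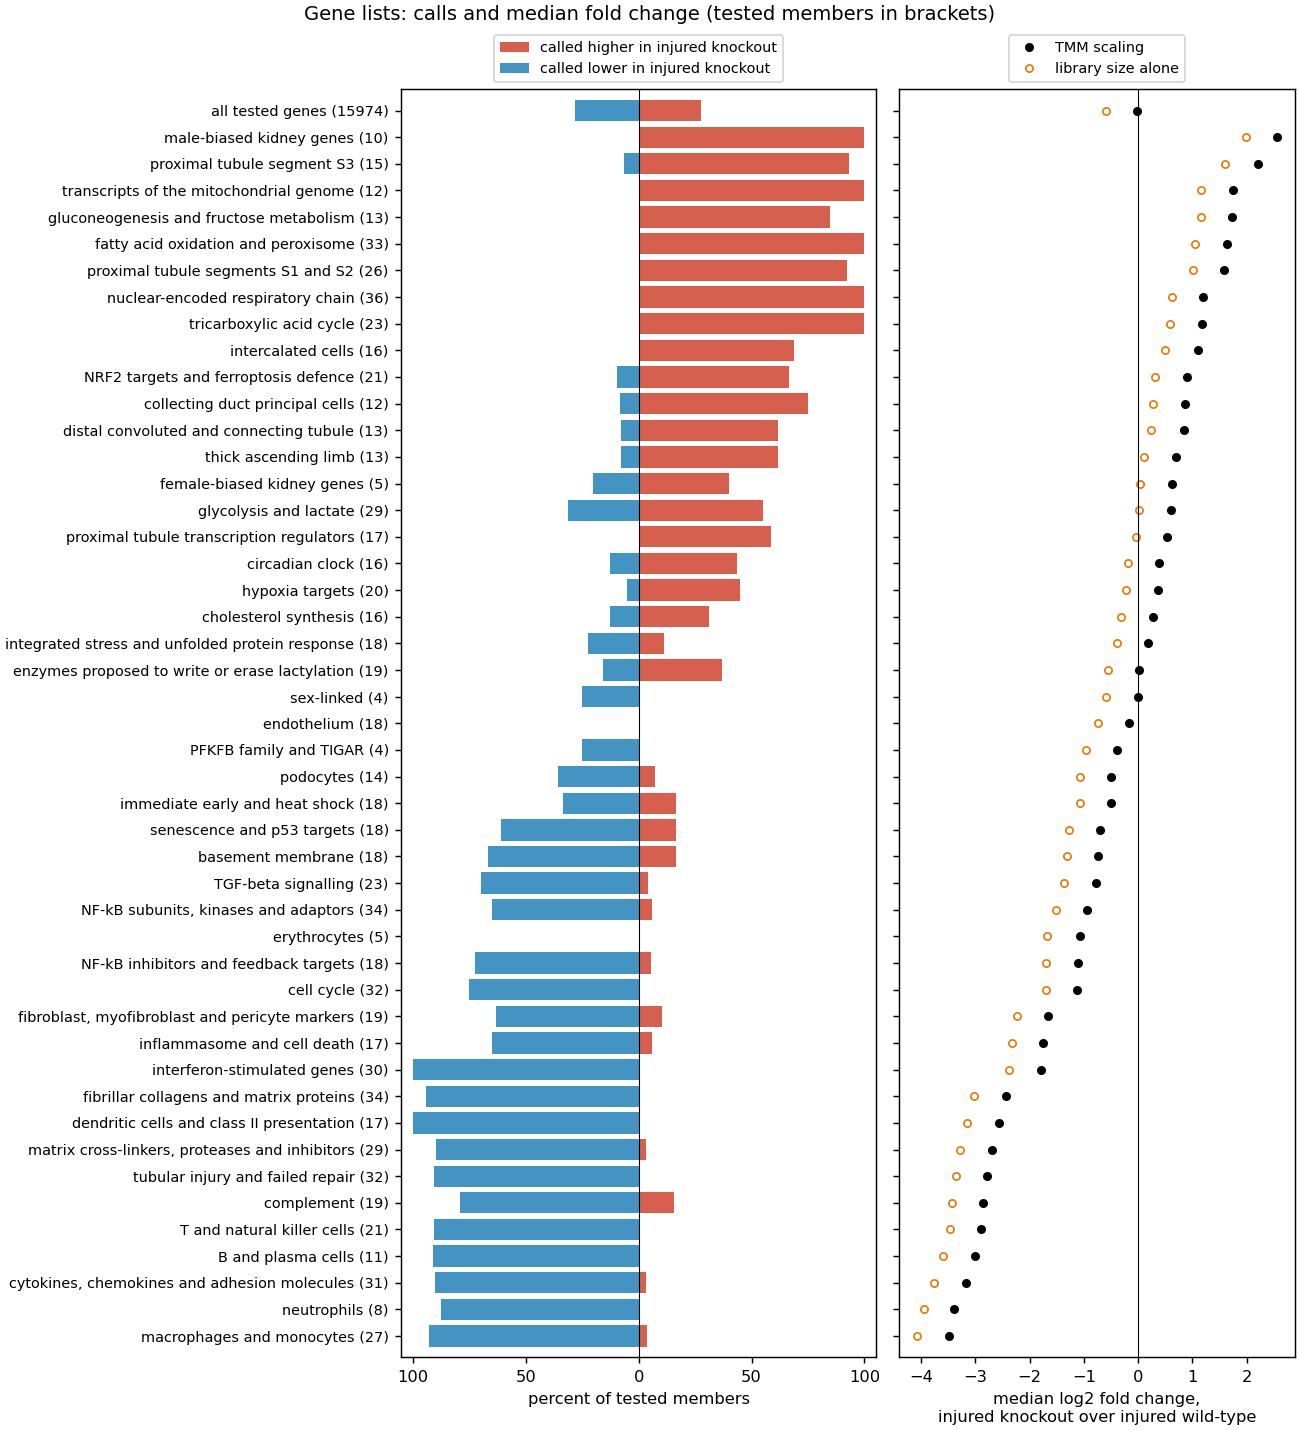
Left, the percent of tested members of each list called higher (red, to the right) or lower (blue, to the left) in the injured knockout; right, the median log2 fold change of the list with TMM scaling (black) and with library size alone (orange rings). Immune, injury and matrix lists lie at the lower end and proximal tubule and mitochondrial lists at the upper end under both scalings. Lists with TMM medians from 0.02 to 0.54 fall below 0 with library size alone.

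Genes of sex-biased kidney expression were checked because many of them are proximal tubule genes. Of 10 male-biased genes all were higher in the injured knockout, with a median of 2.55, Kap and Cyp4b1 among them, and of 5 female-biased genes 2 were higher, Cyp2a4 (3.25) and Cyp4a14 (2.40), and 1 lower, Slc7a12 (-1.03). The value of Cyp4a14 was 1.56 without knockout replicate 2, and the call of Slc7a12 ended without knockout replicate 1 (-0.81) or 3 (-0.99), without wild-type replicate 3 (-0.39) or without sham replicate 1, 2 or 3 (-1.02, -1.04 and -1.02). All 9 libraries carried Y-linked transcripts, with Ddx3y between 44.2 and 73.0 CPM and no call (0.05), and Xist, which the inactive X chromosome of females makes, stayed at or below 0.368 CPM. Kdm5d, also Y-linked, was lower (-0.43), a call that ended without knockout replicate 2 (-0.30) or wild-type replicate 1 (-0.40).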

How the data were processed

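Kidney RNA was sequenced in 9 libraries, made with the NEBNext Ultra kit per the labels' protocols. The deposited table holds whole-number counts per Ensembl gene, which the authors did not normalise. The submitters' processing notes name mm10 and DESeq2 1.16.1. For the aligner, counter, annotation and strand setting nothing is given in the sources used here, so reads of overlapping, antisense or paralogous genes may be shared. Identifiers were named from GENCODE M21 (55227 of 56305 matched). Some listed genes fell below the low-count filter. Among them were Gatm of the proximal tubule list and Ndufs3, Uqcrc1 and Atp5a1, although the other 36 listed nuclear-encoded respiratory chain genes passed. The reason was not tested, so a low count here, as for Tagln and Meg3, need not mean low expression.

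Counts were tested with edgeR 4.0.16 (quasi-likelihood F test, TMM scaling, filterByExpr, which kept 15974 genes) in R 4.3.3. All 9 libraries entered 1 fit with a term per group, the contrast was injured knockout minus injured wild-type, and p-values were adjusted by Benjamini-Hochberg with a threshold of 0.05. SE is the log2 fold change divided by the root of F. CPM use TMM-scaled library sizes. The fit was tested on simulated data in which a small part of genes changed, about equally up and down. That simulation cannot show how TMM scaling behaves where most genes differ. The alternatives were DESeq2 1.42.0, limma-voom (limma 3.58.1), other scalings and filters, the 6 injured libraries alone, a replicate block and leaving out each library.

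Genes named are Pfkfb3, the 8 largest called rises and falls (injured libraries averaging 5 CPM or more, groups not overlapping), 2 called members of each list with the highest mean CPM, members of small minorities of up to 5, and a panel of 33 genes. A few genes that this rule takes in are not reported here. In smaller lists the members not called are given as counts or ranges. Genes and lists were chosen with earlier results of these data known. Promoters came from RefSeq (GRCm38.p6), for 11691 tested genes and 24 of the panel. Intervals cover counting error only.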

Additional observations from a re-analysis of the deposited data

How the results depend on the processing

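The number of called genes was 8962 with DESeq2 size factors in edgeR, 8988 with the DESeq2 Wald test, 9000 with limma-voom, 9057 with no low-count filter, 8380 with a mean CPM of at least 1 and 8578 with the 6 injured libraries alone. Scaling moved the split: genes higher in the injured knockout were 1852 with library size alone and 2225 with library sizes without mitochondrial transcripts, and genes lower were 9119 and 8166. Leaving out single libraries gave 7919 to 9057 called genes. Replicate numbers do not pair the samples by any label, and deviations of same-numbered injured libraries correlated at -0.07, -0.09 and 0.06, so the replicate block is an alternative only. With the replicate block 8527 genes were called in all 9 libraries and 7746 in the 6 injured ones. Signs of small log2 fold changes turned under scaling. The first value is with library size alone and the second without mitochondrial transcripts in the library sizes: Fmod -0.37 and -0.26, P4ha1 -0.37 and -0.26, Acta2 -0.51 and -0.41, Rgs5 -0.25 and -0.15, Meg3 -0.16 and -0.058, Col4a5 -0.58 and -0.47, Itgb8 -0.46 and -0.35, Slc7a8 -0.31 and -0.20, Slc13a1 -0.27 and -0.16, Umod -0.38 and -0.27, Mertk -0.23 and -0.12, Xbp1 -0.33 and -0.22, Il18 -0.48 and -0.37, Nfkbib -0.23 and -0.12, Otulin -0.36 and -0.25, Cflar -0.36 and -0.25, Ldhb -0.55 and -0.44, Pfkfb2 -0.49 and -0.39, Fbp2 -0.49 and -0.38, Edem1 -0.15 and -0.045, Ddx3y -0.54 and -0.43, Ppargc1a -0.11 and -0.0057, Gm8730 -0.39 and -0.28, Rps13-ps1 -0.40 and -0.30, Kdr -0.19 and -0.084, Ehd3 -0.35 and -0.24, Nphs1 -0.43 and -0.32, Podxl -0.56 and -0.46, Il15ra -0.21 and -0.10. Only the first setting turned Clic5 (-0.090), Irak1 (-0.023), Nlrc4 (-0.0048). Other settings turned Col4a5 (-0.0093) with DESeq2 size factors, Col4a5 (-0.0095) with the DESeq2 Wald test, Col4a5 (-0.0028) with no low-count filter, Col4a5 (-0.013), Podxl (-0.0026) with a mean CPM of at least 1, Col4a5 (-0.031), Ldhb (-0.010), Podxl (-0.018) with the 6 injured libraries alone, Col4a5 (-0.023), Ldhb (-0.0024), Ddx3y (-0.0054), Ehd3 (-0.038), Nphs1 (-0.18), Podxl (-0.22) with the replicate block in the 6 injured libraries, Aldoc (0.030), BC002163 (0.16), Rps13-ps1 (-0.054), Ehd3 (-0.089), Nphs1 (-0.26), Podxl (-0.22) with limma-voom and Aldoc (0.0051), Podxl (-0.067) with the replicate block in all 9 libraries. Where leaving out single libraries turned a sign, the log2 fold changes ranged as follows: Col14a1 -0.57 to 0.036, Fmod -0.0035 to 0.54, Acta2 -0.10 to 0.22, Col4a5 -0.063 to 0.15, Lama1 -0.18 to 0.14, Xbp1 -0.22 to 0.50, Il18 -0.045 to 0.39, Cxcl12 -0.26 to 0.35, C2 -0.15 to 0.016, Hk1 -0.060 to 0.087, Aldoc -0.23 to 0.24, Pkm -0.13 to 0.11, Ldhb -0.090 to 0.11, Pfkfb2 -0.068 to 0.23, Fbp2 -0.047 to 0.19, Ddx3y -0.082 to 0.20, Rps3a3 -0.56 to 6.63, Gm7993 -3.19 to 5.996, Gm8730 -4.28 to 4.51, BC002163 -2.65 to 1.89, Rps13-ps1 -0.37 to 0.78, Ehd3 -0.067 to 0.69, Nphs1 -0.30 to 0.64, Podxl -0.24 to 0.44. The cause of these changes was not tested. Of the genes named here other than Pfkm, Pfkl, Eno1, Eno3, Pdk1, Pdk2, Pdk3 and Slc16a7, those that lost a call when a library was left out are named with their values above. The depth of 15626792 to 19987842 counts leaves genes of a few counts, such as Tnf and Mmp7, with wide errors.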

Other observations

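Some genes varied more between libraries of the same genotype than most genes did. The ratio of the highest to the lowest library had a median of 1.23 in injured knockout and 1.19 in injured wild-type kidneys, and exceeded 4 in 67 genes of the knockout and 44 of the wild-type. Processed pseudogenes, copies of spliced transcripts that can share reads with their parent genes, made up 7 of the 10 most variable entries, 5 from each genotype. Rps3a3 had 117 CPM in knockout replicate 1 and at most 0.711 CPM in the other 8 libraries, and its call (log2 fold change 6.03) turned to -0.56 without that library. Gm7993 had 120.2 CPM in knockout replicate 1 and 37.8 CPM in wild-type replicate 1, and Gm8730 had 114 CPM in knockout replicate 2 and 98.5 CPM in wild-type replicate 1. Rps13-ps1 had 16.7 and 13.9 CPM in knockout replicates 2 and 3 and 11.7 and 14.9 CPM in wild-type replicates 2 and 3, with 0.238 CPM or less in the other 5 libraries. BC002163 had 15.7 CPM in wild-type replicate 3 alone. The other entries included Havcr1 and the antibody segment Igkv3-4 (17.8 CPM in wild-type replicate 1 against 0.444 and 2.15 CPM in replicates 2 and 3, log2 fold change -4.785, and -4.21, -4.38 and -2.41 with no call without knockout replicate 1, knockout replicate 2 or wild-type replicate 1).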
